A study of Caenorhabditis elegans with 2 samples.

Results

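The 10 genes described here encode the chaperones, proteases and regulators of the mitochondrial unfolded protein response of *C. elegans*, and they were taken by gene symbol from a table of 18510 genes. All 10 were found: the chaperone genes *hsp-6*, *hsp-60* and *dnj-10*, the regulator genes *atfs-1*, *dve-1* and *ubl-5*, and the protease genes *clpp-1*, *lonp-1*, *spg-7* and *ymel-1*. RNA-seq had been run on whole wild-type N2 nematodes given 2 mM AbaPep#07, an octapeptide of abalone protein, from L4, the last larval stage (AbaPep#07, 1 library), and on untreated N2 nematodes (Control, 0 mM, 1 library). Both cultures were frozen at Day 10 of adulthood. By the paper's general methods, nematodes were kept at the same temperature unless noted, and liquid cultures were in S medium with *E. coli* NA22. The paper's life span cultures also held the drug FUDR and ampicillin. Its RNA-seq methods do not name the medium, the food or these additions. The comparison asks which genes respond to the peptide in aged nematodes, and with 1 library per condition no difference given here has a replicate check.

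This response is the pathway by which a mitochondrion with misfolded protein or a failing respiratory chain calls for more chaperones and proteases from the nucleus. In *C. elegans* its central factor is ATFS-1, which is imported into healthy mitochondria and degraded there, and which enters the nucleus instead when import fails. The promoters of *hsp-6* and *hsp-60* fused to GFP are the usual reporters of the response, and loss of *spg-7* is a usual way to provoke it in the laboratory.

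The libraries held 19241145 estimated reads (AbaPep#07) and 19409907 (Control). Markers of intestine, body wall muscle, neurons, epidermis, germline and oocytes, and early embryo and eggshell were found in both libraries. Among the epidermal markers, *rol-6* had only 3 reads with AbaPep#07 and 11 in Control. The sperm markers had few reads as well. Of these, *msp-31* was the only gene of the marker lists to meet the thresholds of the study given below, as higher. It had 48.6 reads with AbaPep#07 and 20.1 in Control. The 6 germline and oocyte markers were all lower with AbaPep#07, with a median log2 FPKM ratio of -0.28 and a summed level of 870 FPKM with AbaPep#07 and 1035 FPKM in Control, and so were the 5 markers of early embryo and eggshell, at -0.22. The 3 body wall muscle markers were lower as well, at a median of -0.15. Of the epidermal collagen genes, *col-19* was lower, at -0.63, while *dpy-7*, at -0.13, was within the counting error described below. Of 8 intestinal markers 6 were higher, the largest log2 FPKM ratio being 0.67 for *elt-2*. Of the abundant yolk protein genes, *vit-6* was higher, at 0.18, while *vit-2* (-0.16) and *vit-5* (-0.19) were lower. The summed level of the 8 was 19396 FPKM with AbaPep#07 and 20412 FPKM in Control. Summed over all genes, FPKM was also lower with AbaPep#07, at 1159923 against 1208844 in Control, a log2 ratio of -0.06. A small fall in summed FPKM therefore belongs partly to the unit. In RNA of whole nematodes, fewer cells of a type and less RNA per cell cannot be told apart. FPKM is a read count scaled by transcript length and library total, TPM is the same quantity scaled so that each library sums to the same total, and the estimated reads are the unscaled counts. Genes that reached 20 reads when the libraries were added had a median log2 ratio of -0.03 by FPKM, -0.02 by reads and 0.03 by TPM, so a difference of this size between units belongs to the scaling.

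None of the 10 genes was differentially expressed by the thresholds of the study, an FDR of at most 0.05 and a ratio of FPKM of at least 2 or at most 0.5. Over all genes, 2.1% passed them as higher with AbaPep#07 and 1.43% as lower. The response genes stayed well inside the fold threshold, and their log2 ratios of FPKM lay between -0.23 for *hsp-60* and 0.32 for *dve-1*, with a median of -0.0049. The 95% interval of each read ratio, an exact interval for the split of the reads between the libraries, covers counting error only. The highest upper bound of any of the 10 genes was 1.45, that of *dve-1*, and the lowest lower bound was 0.812, that of *spg-7*. Counting alone therefore leaves no room for a 2-fold difference between these libraries in any of the 10 genes.

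Small differences were still seen, because these genes are deeply covered, with 530 reads for *ubl-5* and 58509 for *hsp-6* over both libraries. The interval of the read ratio lay wholly below 1 for 4 genes (*hsp-60*, *atfs-1*, *spg-7* and *hsp-6*) and wholly above 1 for *dve-1*. The other 5 genes (*dnj-10*, *ubl-5*, *clpp-1*, *lonp-1* and *ymel-1*) had intervals that held 1. Among the 7689 genes with at least 500 reads, 29.2% were lower and 24.9% were higher by the same rule, so differences of this kind were common in genes of this depth and are no result about these 10. The median size of the log2 read ratio, without its sign, was 0.10 for the 10 genes and 0.14 for those 7689. If cultures are assumed to vary, no gene of the 10 passed edgeR's exact test at an FDR of 0.05, either at a coefficient of variation of 0.1 (3.23% of all genes passed), at 0.2 (0.486%) or at 0.4 (0.0378%).

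**Figure D1:**
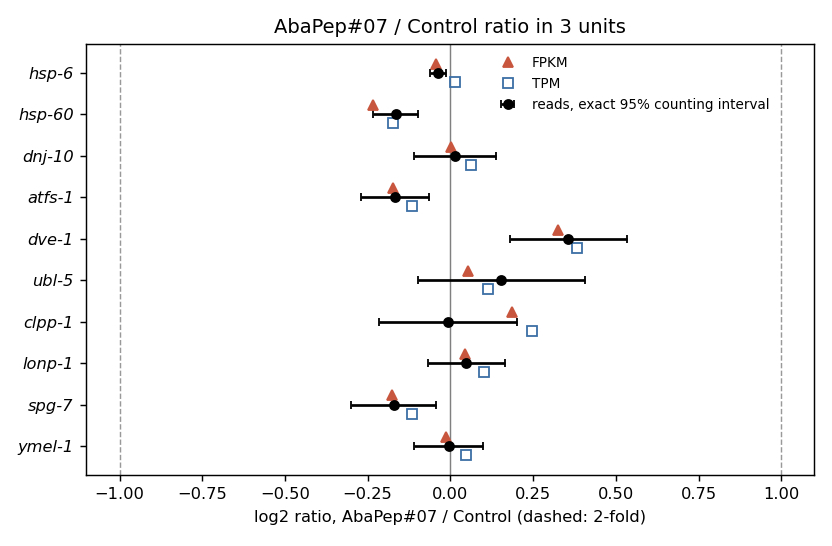
Log2 ratio of AbaPep#07 to Control for each of the 10 genes, by reads (black points with exact 95% counting intervals), by FPKM (triangles) and by TPM (open squares), with dashed lines at 2-fold. All points and intervals lie between the dashed lines, *dve-1* stands farthest to the right, and *hsp-6* changes sides between FPKM (-0.04) and TPM (0.01).

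Of the 3 chaperone genes of the mitochondrial matrix, *hsp-6* and *hsp-60* were the most abundant of all 10 genes. HSP-6 is the mitochondrial HSP70, which pulls proteins in through the inner membrane and folds them. Its gene (chromosome V, 4824124 to 4826760, minus strand, 4 exons) had 687 FPKM (28742 reads) with AbaPep#07 and 708 FPKM (29767 reads) in Control. In both libraries it was the most abundant of the 10 genes, above 98.8% of all genes, and it made up 57.6% of their summed FPKM with AbaPep#07 and 57.5% in Control. The read ratio was 0.974 (95% interval 0.958 to 0.990). The log2 ratio was -0.04 by FPKM and by reads but 0.01 by TPM, so the direction of this small difference depends on the scaling. Of the genes with at least 500 reads, 84.8% differed by more than *hsp-6* did.

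HSP-60 is the mitochondrial chaperonin, a barrel that encloses proteins while they fold. The gene (chromosome III, 1619742 to 1625803, plus strand) had 135 FPKM (3343 reads) with AbaPep#07 and 158 FPKM (3781 reads) in Control. The read ratio was 0.892 (0.851 to 0.935), the log2 ratio was -0.23 by FPKM, -0.17 by reads and -0.17 by TPM, and no scaling turned its direction. A larger read ratio, up or down, was found for 42.2% of the genes with at least 500 reads. The FPKM of *hsp-6* was 5.11 times that of *hsp-60* with AbaPep#07 and 4.48 times in Control. The read ratio of *hsp-60* was lower than that of *hsp-6* by a factor of 0.916 (0.872 to 0.962).

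The partner of the chaperonin is the lid protein HSP10, encoded by Y22D7AL.10, which the table describes as a mitochondrial 10 kDa heat shock protein. It lies head to head with *hsp-60* (chromosome III, 1617151 to 1618929, minus strand), with 812 bases between the gene ends. It had 261 FPKM (1520 reads) with AbaPep#07 and 361 FPKM (2051 reads) in Control, a read ratio of 0.748 (0.699 to 0.799). Both genes of this divergent pair were thus lower with AbaPep#07, and the read ratio of *hsp-60* was 1.19 times that of Y22D7AL.10 (1.099 to 1.295). The germline markers that were lower in the same library are given above, and their part in these differences was not tested.

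DNJ-10 is a mitochondrial DnaJ protein, the class of co-chaperone that delivers substrates to HSP70. Its gene (chromosome III, 8631165 to 8633565, plus strand) had exactly 1066 reads in each library, with 41.9 FPKM in AbaPep#07 and 41.8 FPKM in Control. Its read ratio was 1.01 (0.926 to 1.099). The read ratio of *hsp-6* was 0.966 times that of *dnj-10*, and the interval of 0.886 to 1.05 holds 1.

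**Figure D2:**
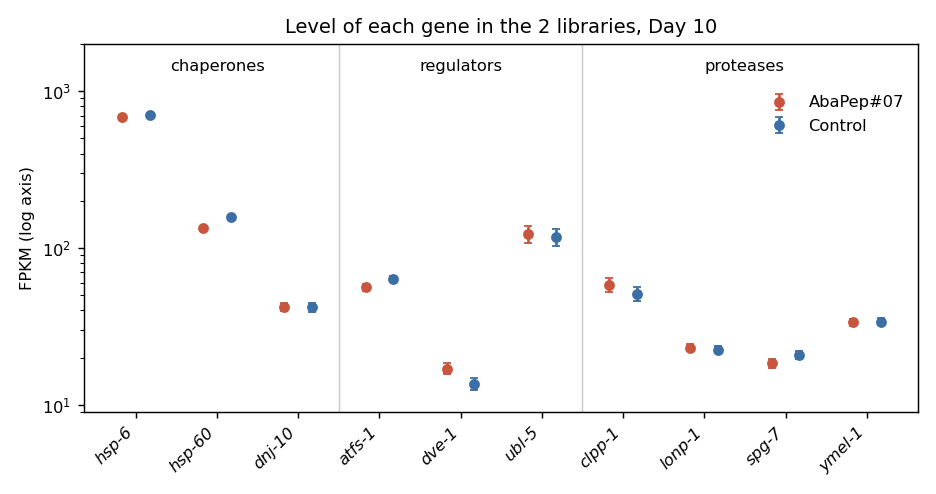
FPKM of the 10 genes on a log axis, grouped by role, with AbaPep#07 (red) left of Control (blue) and bars for the 95% Poisson interval of the reads behind each value. The levels run from 17.04 FPKM (*dve-1*) to 687 FPKM (*hsp-6*) with AbaPep#07 and from 13.6 to 708 FPKM for the same genes in Control, and the distance between genes is far larger than that between libraries.

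Among the regulators, ATFS-1 is the bZIP transcription factor that carries both a mitochondrial and a nuclear targeting signal. Its gene (chromosome V, 14193663 to 14197700, plus strand) has 7 annotated coding transcripts. It had 56.2 FPKM (1467 reads) with AbaPep#07 and 63.5 FPKM (1663 reads) in Control. The read ratio of 0.890 (0.829 to 0.955) lay below 1, and the log2 ratio was -0.17 by FPKM and by reads and -0.11 by TPM. ATFS-1 is controlled mainly by where the protein goes, so the RNA level alone does not report its activity.

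DVE-1 is a homeodomain protein that acts on chromatin during the response. It is encoded on chromosome X (427035 to 433812, minus strand) by a gene with 9 annotated coding transcripts. It was the least abundant of the 10 genes and the one with the largest ratio, with 17.04 FPKM (595 reads) with AbaPep#07 and 13.6 FPKM (469 reads) in Control. The read ratio was 1.28 (1.13 to 1.45), and the log2 ratio was 0.32 by FPKM, 0.36 by reads and 0.38 by TPM. Differences larger than this were found for 14.5% of the genes with at least 500 reads. The ratio of *dve-1* exceeded that of *atfs-1* by a factor of 1.44 (1.247 to 1.658). The separate intervals of these regulators, given above, lay on opposite sides of 1. UBL-5, a small ubiquitin-like protein that works with DVE-1, is encoded on chromosome I (5607826 to 5608841, minus strand). Its gene had 122 FPKM (278 reads) with AbaPep#07 and 118 FPKM (252 reads) in Control, and the read ratio of 1.11 (0.935 to 1.32) was within counting error.

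Of the 4 protease genes, *spg-7* was lower beyond counting error by reads and the other 3 were within it, whereas by TPM *spg-7* was within it and *clpp-1* was higher. CLPP-1 is the serine protease of the matrix, which cuts misfolded proteins into the peptides that are exported when the response is signalled. Its gene (chromosome II, 10300714 to 10302842, minus strand) had 380 reads with AbaPep#07 and 385 in Control, a ratio of 0.996 (0.862 to 1.15). LONP-1, the LON protease, degrades damaged matrix proteins and also ATFS-1 once it is imported. Its gene (chromosome I, 10676922 to 10682374, minus strand) had 23.2 FPKM (1239 reads) with AbaPep#07 and 22.5 FPKM (1209 reads) in Control, a ratio of 1.03 (0.954 to 1.12).

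Both remaining proteases are AAA proteases of the inner membrane. SPG-7, the paraplegin homologue, faces the matrix, and its gene (chromosome I, 3467132 to 3478517, plus strand) had 18.4 FPKM (934 reads) with AbaPep#07 and 20.8 FPKM (1061 reads) in Control. Its read ratio was 0.888 (0.812 to 0.971), and the log2 ratio was -0.18 by FPKM, -0.17 by reads and -0.12 by TPM. YMEL-1, whose homologue in yeast faces the intermembrane space, had 33.7 FPKM (1496 reads) with AbaPep#07 and 34 FPKM (1515 reads) in Control (chromosome III, 10416139 to 10421757, plus strand). The ratio was 0.996 (0.927 to 1.07), and its log2 value was -0.01 by FPKM but 0.05 by TPM. The ratio of *spg-7* was 0.859 times that of *lonp-1* (0.762 to 0.969), whereas against *ymel-1* it was 0.892 times, with an interval of 0.7947 to 1.0001 that reached 1. In all, 9 pairs of genes were compared in this way, and their intervals were not adjusted for that number. These intervals cover counting error only, and the share of other gene pairs whose intervals exclude 1 was not computed.

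For *clpp-1* the units disagreed more than for any other of the 10 genes. With nearly equal reads, it had 58.2 FPKM with AbaPep#07 and 51.1 FPKM in Control, a log2 ratio of 0.19 by FPKM and 0.25 by TPM, against -0.0063 by reads. The effective length implied by reads and FPKM, which is shorter than the transcript because a fragment cannot start near its end, was 340 bases with AbaPep#07 and 388 bases in Control, a difference of -12.6%. The gene has 3 annotated coding transcripts of 354 to 789 bases when spliced, and RSEM divides reads among such transcripts before it averages their lengths. The implied effective length of *hsp-60*, with 4 coding transcripts, was 4.85% longer with AbaPep#07, and its log2 ratio was lower by FPKM than by reads by 0.07. For the 5 genes with a single annotated transcript (*hsp-6*, *ubl-5*, *lonp-1*, *spg-7* and *ymel-1*) the implied effective length was 8.01 to 10.3 bases longer with AbaPep#07. That shift is at most 0.474% for the 4 long genes but 7.27% for *ubl-5*, whose implied effective length was 118 bases with AbaPep#07 and 110 bases in Control for a spliced transcript of 327 bases. The reads of all 10 genes were whole numbers, to the 2 decimals given, in both libraries. The gene *mdt-22* lies inside *clpp-1* on the other strand, and *Y47G6A.14* and *Y47G6A.15* overlap *spg-7* in the same way, but their annotated exons share 0 bases with those of *clpp-1* or *spg-7*.

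The order of the 10 genes by FPKM was nearly the same in both libraries. With AbaPep#07 it was *hsp-6*, *hsp-60*, *ubl-5*, *clpp-1*, *atfs-1*, *dnj-10*, *ymel-1*, *lonp-1*, *spg-7* and *dve-1*, and in Control *atfs-1* stood before *clpp-1*. Neighbours whose counting intervals overlapped were *hsp-60* with *ubl-5*, *clpp-1* with *atfs-1*, and *spg-7* with *dve-1* in the AbaPep#07 library, and *lonp-1* with *spg-7* in Control. Together the 10 genes took 0.103% of the TPM with AbaPep#07 and 0.102% in Control. By role, the summed FPKM was 863 with AbaPep#07 and 908 in Control for the chaperones, 195.4 with AbaPep#07 and 194.8 in Control for the regulators, and 133.5 with AbaPep#07 and 128.4 in Control for the proteases. The log2 ratio of the chaperone sum was -0.07, near the -0.06 of the FPKM summed over all genes.

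**Figure D3:**
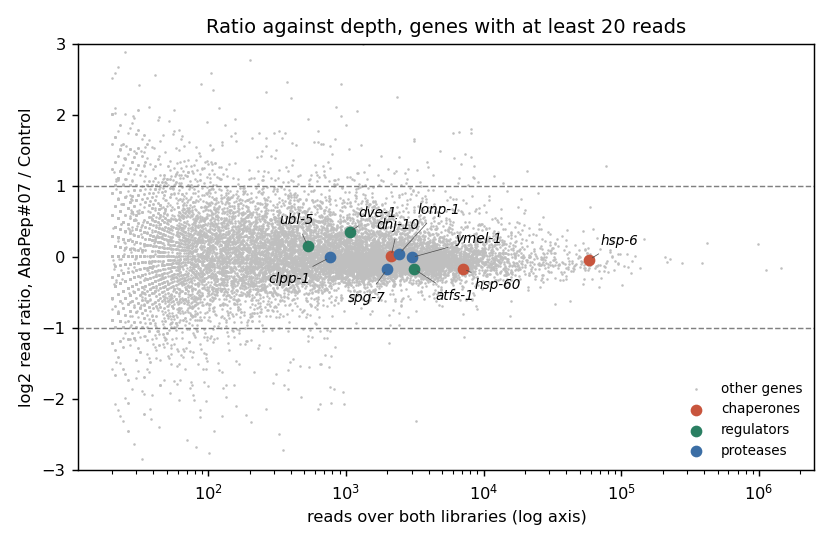
Log2 read ratio of AbaPep#07 to Control (y axis) against reads over both libraries (x axis, log), for 14089 genes with at least 20 reads (grey), with the chaperone (red), regulator (green) and protease (blue) genes marked. Of the 10 genes, *dve-1* lies farthest from 0, at 0.36, and the others sit within the dense band around 0 at their depth. A further 30 genes with 0 reads in 1 library or a log2 ratio beyond the axis are not drawn.

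The wider machinery was described by lists chosen with earlier results of these data known. Over all genes with at least 20 reads, 54.8% were lower with AbaPep#07 by FPKM and 46.0% by TPM, and the counts beyond counting error below stand against the 29.2% lower and 24.9% higher among genes with at least 500 reads. None of the listed genes outside the marker lists met the thresholds of the study. A list of 6 further genes known as raised by ATFS-1 leaves out its best known targets, which stand among the 10 genes or in other lists. Negative log2 FPKM ratios were found there for *hsp-6* (-0.04, but 0.01 by TPM), *hsp-60* (-0.23), Y22D7AL.10 (-0.47) and *timm-23* (-0.39). The other chaperone and protease genes of the 10 were mixed. Ratios were positive for *dnj-10* (0.0021), *lonp-1* (0.04) and *clpp-1* (0.19, but -0.0063 by reads), and negative for *spg-7* (-0.18) and *ymel-1* (-0.01). In the list of 6, the 5 genes that reached 20 reads were on the higher side, with a median of 0.23, and 2 were higher beyond counting error. Of these, *cdr-2*, a cadmium-responsive gene, had 338 reads with AbaPep#07 and 262 in Control, a ratio of 1.30 (1.104 to 1.535). The other was K09E9.1, a predicted transporter, with 574 reads with AbaPep#07 and 505 in Control, a ratio of 1.15 (1.02 to 1.29). The highest by FPKM was *gpd-2*, a glycolytic gene, with a read ratio of 1.30 (0.947 to 1.79) from 93.7 reads with AbaPep#07 and 72.6 in Control, which are estimates that are not whole. The lowest was F15B9.10, with a read ratio of 1.03 (0.955 to 1.11). The remaining gene, C07G1.7, had 1 read with AbaPep#07 and 0 in Control.

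Import through the mitochondrial membranes depends on the TOM and TIM complexes. All 12 import genes with at least 20 reads were lower with AbaPep#07 by FPKM, with a median log2 ratio of -0.17, but 11 were lower by reads and 8 by TPM, and 5 of the 13 listed were lower beyond counting error and 0 higher. The lowest ratio was that of *timm-23*, the channel of the inner membrane, which had 203 FPKM (2555 reads) with AbaPep#07 and 265 FPKM (3315 reads) in Control, a read ratio of 0.777 (0.738 to 0.819). The highest by FPKM was the receptor gene *tomm-70*, with a read ratio of 0.987 (0.895 to 1.09). The import gene not counted here, *tin-9.2*, had 0 reads with AbaPep#07 and 0.63 in Control.

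By TPM, 3 of the 5 co-chaperones and 5 of the 9 further proteases and prohibitins were lower, near the share over all genes. Of the 5 mitochondrial co-chaperones and partners, Y22D7AL.10 and *atad-3* were lower beyond counting error and 3 were within it, the highest being the GrpE gene C34C12.8 with a ratio of 1.03 (0.915 to 1.15). The AAA protein gene *atad-3* had 717 reads with AbaPep#07 and 962 in Control, a ratio of 0.752 (0.682 to 0.829). Among the 9 further proteases and prohibitins, 4 were lower and 0 higher. The lowest was *mppa-1*, a subunit of the peptidase that removes import signals, with 345 reads with AbaPep#07 and 435 in Control, a ratio of 0.8001 (0.693 to 0.924). The highest with at least 100 reads was *immp-1*, at 1.12 (0.889 to 1.42). The 71 mitochondrial ribosomal protein genes had a median log2 FPKM ratio of -0.12, with 63 lower by FPKM and 51 by TPM. Beyond counting error, 17 (of 71) were lower and 1 was higher. The shares were 29.2% lower and 24.9% higher among genes with at least 500 reads, which some of the 71 did not reach. Among genes with at least 20 reads they were 20.6% lower and 20.6% higher. The 71 genes ran from *mrps-35*, at -0.58 by FPKM but -0.25 by reads, to *mrpl-2*, at 1.14 by FPKM although its reads were 432 with AbaPep#07 and 444 in Control. Of the 8 genes of mitochondrial dynamics and mitophagy, 1 was lower beyond counting error and 7 were within it, with log2 FPKM ratios from -0.16 for *fndc-1* to 0.04 for *dct-1*. For comparison, the 577 genes annotated to the mitochondrion with at least 20 reads, a list chosen after the data were seen, had a median of -0.06 by FPKM and -0.0046 by TPM.

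Among 12 other regulators of the response, 4 were higher and 5 lower beyond counting error, against 24.9% and 29.2% of the genes with at least 500 reads. The highest was *jmjd-3.1*, a histone demethylase gene that acts on this response, with 974 reads with AbaPep#07 and 760 in Control, a ratio of 1.29 (1.17 to 1.42). The lowest by FPKM was *lin-65*, a chromatin factor that works with the methyltransferase MET-2, at -0.26 on the log2 scale, although its read ratio of 0.913 (0.818 to 1.02) was within counting error.

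**Figure D4:**
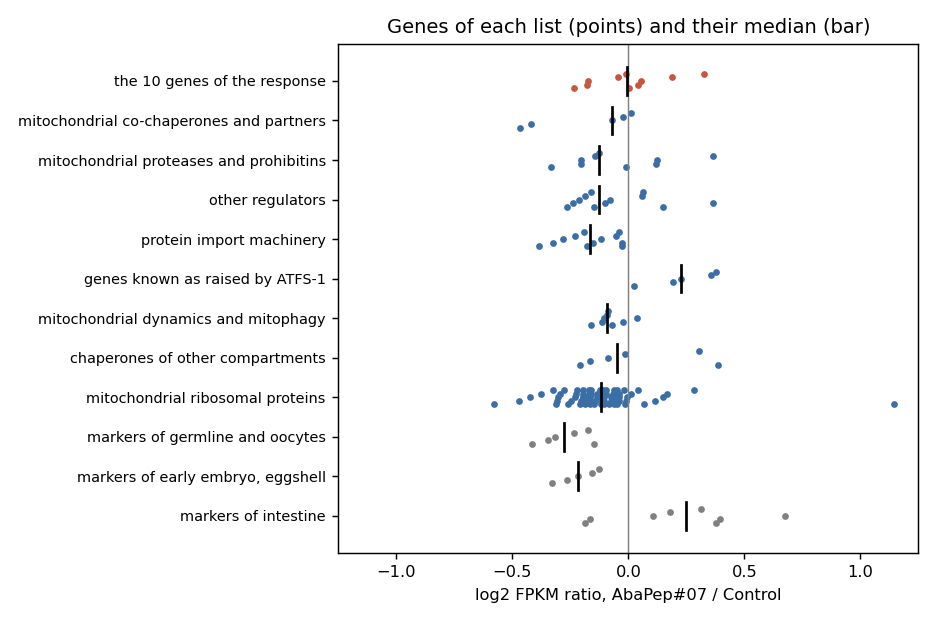
Log2 FPKM ratio of AbaPep#07 to Control for the genes of each list with at least 20 reads (points) and the list median (black bar). The 10 genes of the response straddle 0 with a median of -0.0049, the further genes known as raised by ATFS-1, a list without *hsp-6* and *hsp-60*, sit at 0.23, the import genes at -0.17, and the germline and oocyte markers (grey) at -0.28.

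Of 6 chaperone genes of other compartments, 2 were higher and 3 lower beyond counting error, and 3 were compared with *hsp-6*. These 6 genes had 26356 to 277751 reads over both libraries, so even small differences exceed counting error. The shares among genes with at least 500 reads are no matched background for them. The endoplasmic reticulum HSP70 genes *hsp-3* and *hsp-4* had read ratios of 1.31 (1.28 to 1.34) and 1.255 (1.227 to 1.284), and the ratio of *hsp-6* was 0.744 (0.723 to 0.766) and 0.776 (0.755 to 0.798) times theirs. The cytosolic HSP70 gene *hsp-1* had 103536 reads with AbaPep#07 and 104854 in Control, a ratio of 0.996 (0.988 to 1.005), and that of *hsp-6* was 0.978 times it (0.960 to 0.996). The lowest of the 6 by FPKM was the small heat shock gene *hsp-16.2*, with 21076 reads with AbaPep#07 and 23582 in Control, a ratio of 0.902 (0.885 to 0.919).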

How the data were processed

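RNA of whole N2 nematodes was sequenced in 1 AbaPep#07 and 1 Control library. Per the submitters' processing notes, the tools were HISAT2 2.0.4, Bowtie2 2.2.5 and RSEM 1.2.12, with the build WBcel235. The authors deposited for each gene an estimated count of reads, an FPKM value and a TPM value per library. They also deposited columns of their own comparison, a log2 ratio, a p-value and an FDR (treated here as a score), which were not used. There were 0 other columns of per-sample values.

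The members and lists were chosen with earlier results of these data known. Ratios of estimated counts, divided by the library totals, were given exact 95% Clopper-Pearson intervals, which cover counting error only, since PCR copies are not told apart and variation between cultures is not covered. Intervals for 2 genes together were exact below 20000 reads and otherwise came from the normal approximation for large counts. The thresholds of the study were applied with a Poisson test of the 2 libraries, adjusted by Benjamini-Hochberg over 18510 genes, which compares these libraries and not the conditions. The log2 ratios used no pseudocount except where an FPKM was 0. Of each list other than the marker lists, genes that met the thresholds and the highest and lowest by FPKM with at least 100 reads were named. From the marker lists, *msp-31*, which met the thresholds, and *col-19*, *dpy-7*, *rol-6*, *elt-2*, *vit-2*, *vit-5* and *vit-6* were named with their values known. C07G1.7, *tin-9.2*, *cdr-2*, K09E9.1, *atad-3*, *hsp-4* and *hsp-1* were named in addition, with their values known. The protein R151.7 was matched as *hsp-75*, because the symbol *trap-1* names another gene, and *hrg-9* was matched as R186.1. Positions are from the annotation of WBcel235.

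Alternatives were the other units, TMM (edgeR 4.0.16) and DESeq2 1.42.0 scaling, and the edgeR exact test with an assumed coefficient of variation. The edgeR quasi-likelihood and DESeq2 tests could not be fitted without replicates. The functions were tested on simulated data. R 4.3.3, Python 3.11.15, numpy 2.4.6, pandas 2.3.3, scipy 1.17.1 and matplotlib 3.10.9 were used.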

Additional observations from a re-analysis of the deposited data

How the results depend on the processing

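None of the 10 genes met the thresholds of the study under any alternative run. By TPM, 2 genes were higher and 2 lower beyond counting error, in place of 1 and 4 by reads, since *clpp-1* was then higher and *hsp-6* and *spg-7* were within it, and *hsp-6* had a log2 ratio of 0.0148 by TPM, the opposite direction to its FPKM. With the edgeR exact test at an assumed coefficient of variation of 0.1, 0.2 or 0.4, 0 genes were higher and 0 lower. The median of the chaperones of other compartments was 0.0082 by TPM, against -0.05 by FPKM. Of 50 values of the 10 genes under alternatives, 47 moved by less than counting error, which includes changes of sign near 0. The log2 ratio kept 1 direction under all scalings for 7 of the 10 genes, and the exceptions were *hsp-6*, *clpp-1* and *ymel-1*. No library could be left out with 1 per condition. No paired analysis was possible because each condition had 1 library. Differences smaller than the variation between cultures cannot be recognised in these data, and that variation was not measured.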
